A study of Mus musculus with 6 samples.

Results

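Interferon-stimulated genes are the genes that a cell switches on when interferon reaches it, and 9 of them were followed in mouse kidney epithelium carrying a *Pkd1* knockout: *Ifit1*, *Ifit2*, *Ifit3*, *Isg15*, *Irf7*, *Oasl2*, *Rsad2*, *Bst2* and *Usp18*. They were taken by symbol, 9 of the 55367 gene symbols listed in each library, and all 9 passed the filter on low values. RNA-seq measured poly(A) RNA of kidney tubular epithelial cells from WT mice given saline, Pkd1-/- mice given saline (ADPKD) and Pkd1-/- mice given MMPP (ADPKD+MMPP), all at Day115, with 2 libraries in each of the 3 groups. Cells were enriched with DBA, a plant lectin that binds collecting duct epithelium, although the labels also name whole kidney as the source of the RNA put through oligo-dT selection. The Pkd1-/- animals were male Pkd1 fl/fl;Cre/Esr1+ mice in which tamoxifen activates Cre, and MMPP is a polyethylene glycol-coated, Mn2+-chelated melanin-like nanoparticle injected into the blood. The sources do not say whether the libraries of a group came from separate animals, so the p-values measure the spread between libraries.

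Type I interferon binds a receptor made of IFNAR1 and IFNAR2. The kinases JAK1 and TYK2 then phosphorylate factors such as STAT2, which joins IRF9 in a complex that binds the interferon-stimulated response element in the promoters of target genes. The products restrict viruses and tune the response itself, and tubular epithelium, like most cells, can both make and answer interferon.

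The promoters of the members were compared for this element, which the complex described above binds. RefSeq (GRCm38.p6) held promoters for 8 of the 9 members. Windows of 300 bases, 250 before the start and 50 after it, were searched on both strands for GAAANNGAAA, the core of the element (TTTCNNTTTC on the other strand). It was present in 5 of the 8 members and in 3.99% of all 27025 genes with a promoter entry, or 3.44% of all 32851 promoters. The 200 bases before the start of these 5 genes are shown 5′ to 3′ on the strand of the gene, with the matching bases in capitals.
Ifit1, chr19:34640689-34640888, plus strand: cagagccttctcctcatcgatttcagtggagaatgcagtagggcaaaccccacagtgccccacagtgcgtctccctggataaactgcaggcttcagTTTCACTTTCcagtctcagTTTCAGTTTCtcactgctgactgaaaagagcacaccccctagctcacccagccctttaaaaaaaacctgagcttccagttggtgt
Ifit3, chr19:34583329-34583528, plus strand: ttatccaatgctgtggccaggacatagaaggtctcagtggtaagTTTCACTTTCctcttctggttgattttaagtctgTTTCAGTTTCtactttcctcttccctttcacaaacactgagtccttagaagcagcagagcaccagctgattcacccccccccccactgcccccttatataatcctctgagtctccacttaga
Isg15, chr4:156200819-156201018, minus strand: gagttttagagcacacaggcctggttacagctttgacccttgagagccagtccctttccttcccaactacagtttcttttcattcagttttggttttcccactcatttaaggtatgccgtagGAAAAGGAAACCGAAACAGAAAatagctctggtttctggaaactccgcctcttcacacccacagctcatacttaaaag
Rsad2, chr12:26456453-26456652, minus strand: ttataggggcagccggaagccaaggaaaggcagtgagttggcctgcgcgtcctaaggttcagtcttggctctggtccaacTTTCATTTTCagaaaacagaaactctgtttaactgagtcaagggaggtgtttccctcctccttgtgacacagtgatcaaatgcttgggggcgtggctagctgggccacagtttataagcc
Bst2, chr8:71537473-71537672, minus strand: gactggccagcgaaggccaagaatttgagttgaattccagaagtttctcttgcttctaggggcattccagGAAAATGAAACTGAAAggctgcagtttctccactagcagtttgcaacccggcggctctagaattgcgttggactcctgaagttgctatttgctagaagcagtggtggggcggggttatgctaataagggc
*Ifit1* and *Ifit3* each held 2 separate matches, *Isg15* held 3 that overlap one another, *Bst2* held 2 that overlap, and *Rsad2* held 1. The matches lay between 57 and 156 bases before the start. No match was found in the windows of *Ifit2*, *Irf7* and *Oasl2*. An element outside the window or with other letters would be missed by this search. Among genes of the lists described further on, the letters were found in 25 of 54 other interferon-stimulated genes, 10 of 15 genes induced by interferon-gamma, 11 of 20 interferon genes, 3 of 18 receptor and signalling genes and 3 of 20 nucleic acid sensing genes with a promoter entry. The gamma-activated site, an element of genes that answer interferon-gamma, was searched as TTCNNNGAA. It was present in 2 of the 8 members, *Ifit2* and *Bst2*, and in 9.55% of all genes (8.30% of all promoters), and in *Bst2* it shares bases with the first element. A match is a description of the letters and was not tested as a binding site.

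The values are FPKM, fragments scaled to exon length and library size, so levels can be compared between genes, but only roughly. The exon length that fits the values joins the exons of all transcripts of a gene, 1 for *Isg15* and 13 for *Irf7*. Genes with many transcripts are thus not quite on the scale of genes with 1. In WT, *Bst2* had the highest mean level and *Usp18* the lowest. *Bst2* had 94.2 ± 6.05 FPKM (SD, n = 2) and *Isg15* 63.9 ± 1.35 (SD, n = 2). *Rsad2* had 34.8 ± 7.30 and *Ifit3* 34.5 ± 5.17 (SD, n = 2), and the libraries of these neighbours overlapped. Below them stood *Ifit2* with 12.99 ± 1.95, *Irf7* with 11.9 ± 0.482 and *Ifit1* with 10.6 ± 0.664 FPKM (SD, n = 2). *Ifit2* and *Irf7* overlapped. *Oasl2* had 7.68 ± 0.248 and *Usp18* 3.90 ± 0.125 FPKM (SD, n = 2). The WT libraries thus already held transcripts of every member, and the plot of members by library shows the levels beside those of the other groups.

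**Figure D1:**
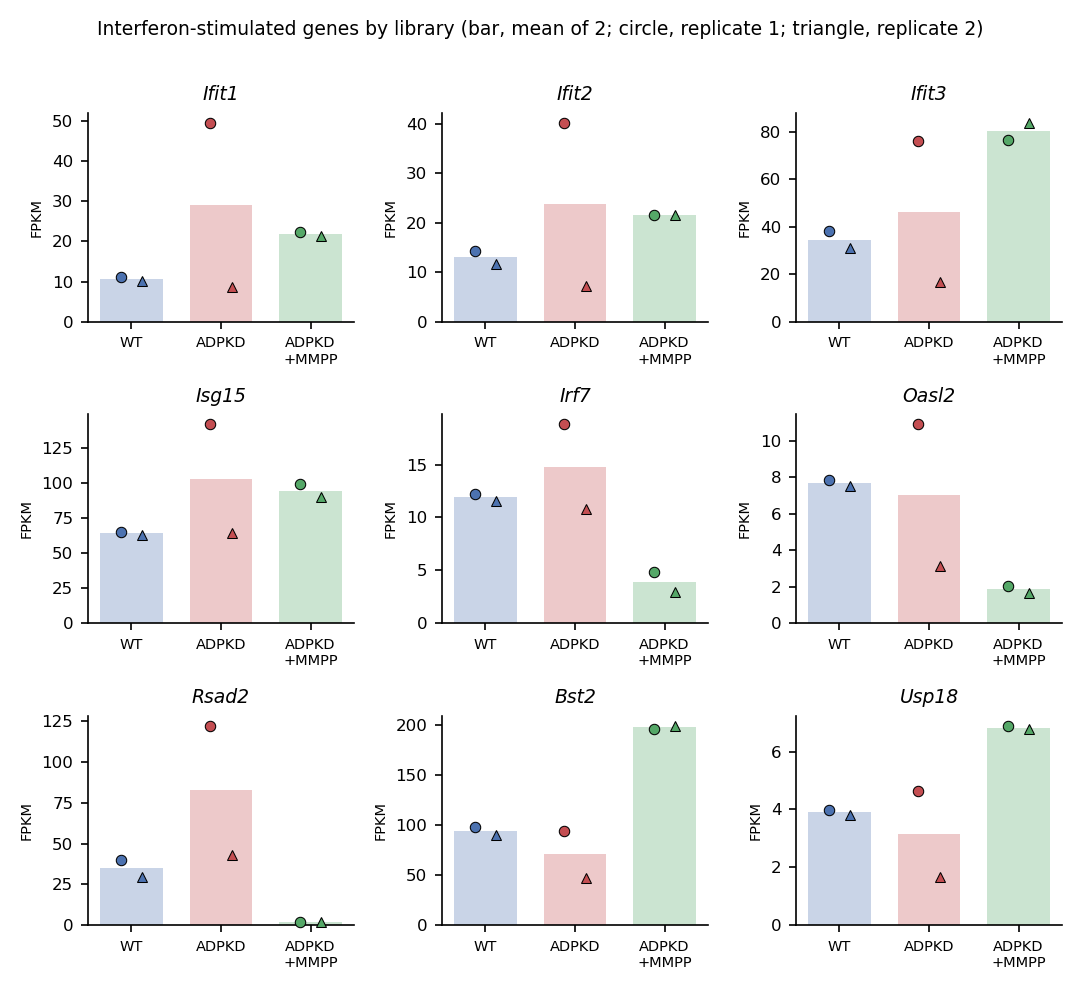
FPKM of the 9 interferon-stimulated genes (vertical axes, FPKM from 0) in WT, ADPKD and ADPKD+MMPP (horizontal axis). Bars are means of 2 libraries, circles replicate 1 and triangles replicate 2. ADPKD replicate 1 lies above ADPKD replicate 2 in every panel, while *Rsad2* falls to 1.91 and 2.16 FPKM and *Bst2* rises to 197 and 200 FPKM in the ADPKD+MMPP libraries.

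Estimated depth was 30.6 to 33.1 M reads in the WT and ADPKD libraries and 10.9 to 11.8 M in the ADPKD+MMPP libraries. Member values rest on 98 reads or more, the fewest being those of *Rsad2* in an ADPKD+MMPP library. *Pkd1* had 17.7 and 17.2 FPKM in WT, 7.64 and 8.91 in ADPKD and 4.34 and 3.99 in ADPKD+MMPP. Pearson's r between replicates, over tested genes that are not independent of each other, was 0.984 for WT, 0.958 for ADPKD and 0.992 for ADPKD+MMPP. In the ADPKD+MMPP libraries 7.17% and 7.67% of low read numbers were odd, against 35.2% to 37.2% in the other libraries. Where reads come in pairs, the independent fragments are fewer than the reads given here and below. The libraries with few odd numbers are those of 1 condition, so the way their values came about and the treatment cannot be told apart.

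The comparison of ADPKD with WT asks what loss of *Pkd1* does to these genes in cystic epithelium. None of the 9 members passed the call rule, a fold of at least 1.5 with an unadjusted P under 0.05 in limma, while 26.7% of all 14862 tested genes did. None passed at an unadjusted P under 0.05 without the fold either. The libraries of the 2 groups were separate for 1 member, *Rsad2*, which was higher in ADPKD. Among tested genes 35.5% were separate and higher and 31.5% separate and lower. On the log2 scale the members had a median fold change of 0.24, and all tested genes one of 0.03. The ADPKD libraries, however, stood far apart from each other in every member, so this result is given library by library. In bulk RNA, fewer cells of a type and less RNA per cell cannot be told apart.

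The IFIT genes encode proteins that bind foreign RNA and block its translation, and they lie together on chromosome 19. *Ifit1* (34640871 to 34650009, plus strand, GRCm38) had 11.05 and 10.1 FPKM in WT, 49.6 and 8.73 in ADPKD and 22.3 and 21.3 in ADPKD+MMPP. *Ifit2* (34550694 to 34576419, plus strand) had 14.4 and 11.6 FPKM in WT, 40.2 and 7.30 in ADPKD, and 21.6 in each ADPKD+MMPP library. *Ifit3* (34583531 to 34588731, plus strand) had 38.2 and 30.9 FPKM in WT, 76.0 and 16.6 in ADPKD and 76.3 and 83.7 in ADPKD+MMPP. In all of them the first ADPKD library was above both WT libraries and the second was below both. Against WT, the log2 fold changes of the ADPKD group were 0.94 for *Ifit1* (standard error 0.72), 0.41 for *Ifit2* (0.70) and 0.06 for *Ifit3* (0.65), with adjusted p of 0.371, 0.695 and 0.957 from limma with Benjamini-Hochberg adjustment. The 95% intervals were wide, from -0.84 to 2.71 for *Ifit1*. The near-identical copy *Ifit3b* had 6.18 and 5.52 FPKM in WT, 18.6 and 4.24 in ADPKD and 18.5 and 20.9 in ADPKD+MMPP, and reads shared between the copies make the levels of both uncertain.

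*Isg15*, whose product is joined to other proteins much as ubiquitin is, and *Usp18*, whose product removes it and also restrains the interferon receptor, belong to one modification system. *Isg15* (chromosome 4, 156199424 to 156200818, minus strand) had 64.9 and 63.0 FPKM in WT, 142 and 64.3 in ADPKD and 98.8 and 89.7 in ADPKD+MMPP. *Usp18* (chromosome 6, 121245906 to 121270917, plus strand) had 3.99 and 3.81 FPKM in WT, 4.63 and 1.68 in ADPKD and 6.89 and 6.77 in ADPKD+MMPP. For *Isg15* the second ADPKD library lay among the WT libraries and for *Usp18* it lay below them. In ADPKD against WT the log2 fold change was 0.57 for *Isg15* (standard error 0.35, adjusted p = 0.278, limma) and -0.34 for *Usp18* (standard error 0.34, adjusted p = 0.498, limma).

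Of the other effectors, *Rsad2* encodes viperin, an enzyme that makes a chain-terminating nucleotide. *Rsad2* (chromosome 12, 26442746 to 26456452, minus strand) had 40.0 and 29.7 FPKM in WT, 122 and 42.9 in ADPKD and 1.91 and 2.16 in ADPKD+MMPP. *Oasl2* (chromosome 5, 114896936 to 114912234, plus strand), of the oligoadenylate synthetase family, had 7.85 and 7.50 FPKM in WT, 10.9 and 3.15 in ADPKD and 2.07 and 1.67 in ADPKD+MMPP. *Bst2* (chromosome 8, 71534255 to 71537456, minus strand) encodes tetherin, which holds budding virus on the cell surface, and had 98.5 and 90.0 FPKM in WT, 94.4 and 47.4 in ADPKD and 197 and 200 in ADPKD+MMPP. Both ADPKD libraries exceeded both WT libraries for *Rsad2*, whereas the ADPKD libraries lay on either side of WT for *Oasl2*, and 1 of them lay below WT for *Bst2*. In ADPKD against WT the log2 fold change was 1.05 for *Rsad2* (standard error 0.47, unadjusted P = 0.0703, adjusted p = 0.156, limma), -0.30 for *Oasl2* (standard error 0.47, adjusted p = 0.661, limma) and -0.49 for *Bst2* (standard error 0.31, adjusted p = 0.293, limma).

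*Irf7*, the transcription factor that amplifies the production of interferon, had 12.3 and 11.6 FPKM in WT, 18.8 and 10.8 in ADPKD and 4.84 and 2.96 in ADPKD+MMPP (chromosome 7, 141262706 to 141266481, minus strand). Its ADPKD libraries lay on either side of WT, and both ADPKD+MMPP libraries lay below every other library. Against WT its log2 fold change in ADPKD came to 0.24 (standard error 0.30, adjusted p = 0.579, limma). *Irf7* overlaps *Phrf1* on the opposite strand and *Usp18* overlaps the lincRNA *Gm44148*, with means over the 6 libraries of 7.59 and 0.154 FPKM, and the sources do not say whether reads were counted by strand.

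All 9 members were higher in ADPKD replicate 1 than in ADPKD replicate 2. The ratio ran from 1.74 for *Irf7* to 5.68 for *Ifit1*, and was 5.51 for *Ifit2*, 4.56 for *Ifit3*, 3.46 for *Oasl2*, 2.85 for *Rsad2*, 2.76 for *Usp18*, 2.20 for *Isg15* and 1.99 for *Bst2*. The median log2 difference between these libraries was 1.49 over the members, against 0.03 over all tested genes. Of all tested genes 52.9% were higher in replicate 1, and 10.3% were over 1.5-fold higher. The members thus differed between ADPKD libraries far more than between WT libraries, where their median log2 difference was 0.12, or between ADPKD+MMPP libraries, where it was 0.02. Among other interferon-stimulated genes 56 of 59 tested genes were higher in ADPKD replicate 1 (median 0.73), and among genes induced by interferon-gamma 22 of 23 were (median 0.97). Genes of the receptors and signalling chain did not share this, with 9 of 21 higher (median -0.03), and nucleic acid sensing genes had 14 of 23 higher (median 0.10).

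Cell type markers also differed between the ADPKD libraries. All 7 tested markers of principal cells were higher in replicate 1 (median log2 difference 1.40), as were 8 of 8 of the proximal tubule (1.70) and 5 of 6 of intercalated cells (1.42). Macrophage and monocyte markers went the other way, with 2 of 12 higher in replicate 1 (median -0.27), and so did 0 of 3 neutrophil markers (-1.58). Summed levels of the principal cell markers were 2079 and 2776 FPKM in WT, 2482 and 942 in ADPKD and 5417 and 5441 in ADPKD+MMPP. *Aqp2* alone had 1267 and 1776, 1392 and 677, and 3555 and 3499 FPKM in the same order. After MMPP 4 of the 7 were called higher than in ADPKD and 2 lower, where 27.9% and 43.0% of all tested genes were. The 2 lower markers were *Aqp4* (-1.99 on the log2 scale) and *Scnn1b* (-1.76). The median share of exon bases in 1 transcript, described further on, was 81.6% in this list. Protein-coding genes in the bin of that share had a median of 0.82 in ADPKD+MMPP against ADPKD. Those with 1 transcript, as *Aqp2* has, had 1.10, and those in the bins of *Aqp4* and *Scnn1b* had 0.55 and -1.69. Endothelial markers (3 of 5, median 0.27) and the few tested markers of T and NK cells (2 of 2) and B cells (2 of 2) were on the side of replicate 1 in part or whole. Between the WT libraries all 9 members were also higher in replicate 1. There 49.8% of all tested genes and 1 of 7 principal cell markers were. The members had a median log2 difference of 0.12 in WT, where the median absolute difference over all tested genes was 0.13. The part of cell makeup in the difference was not tested.

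**Figure D2:**
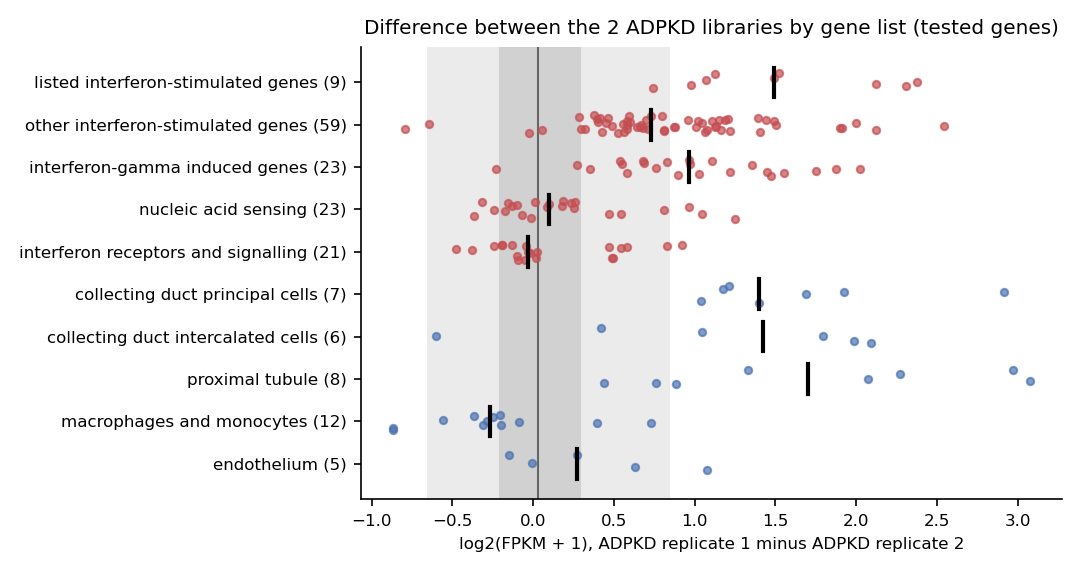
Difference in log2(FPKM + 1) between ADPKD replicate 1 and replicate 2 (horizontal axis) for the tested genes of each list (rows, number of genes in parentheses). Points are genes, black bars list medians, and the grey bands hold the central 50% and 90% of all 14862 tested genes around their median of 0.03. The 9 listed genes lie between 0.75 and 2.38, with other interferon-induced genes and renal epithelial markers on the same side.

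The comparison with WT therefore turned on the ADPKD library used. Without ADPKD replicate 2, 5 members were called, all higher, where 14.4% of tested genes were called higher. The log2 fold changes were then 2.13 for *Ifit1*, 1.80 for *Rsad2*, 1.57 for *Ifit2*, 1.13 for *Isg15* and 1.12 for *Ifit3*. Without ADPKD replicate 1, 5 members were called, all lower, where 16.1% of tested genes were called lower. These were *Oasl2* (-1.06), *Ifit3* (-1.0), *Bst2* (-0.98), *Usp18* (-0.87) and *Ifit2* (-0.75). *Ifit2* and *Ifit3* were thus called in opposite directions depending on which library remained, and the lone library is assumed to vary like the other groups. Without replicate 1 *Rsad2* was at 0.31 and *Isg15* at 0.01, neither of them called.

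**Figure D3:**
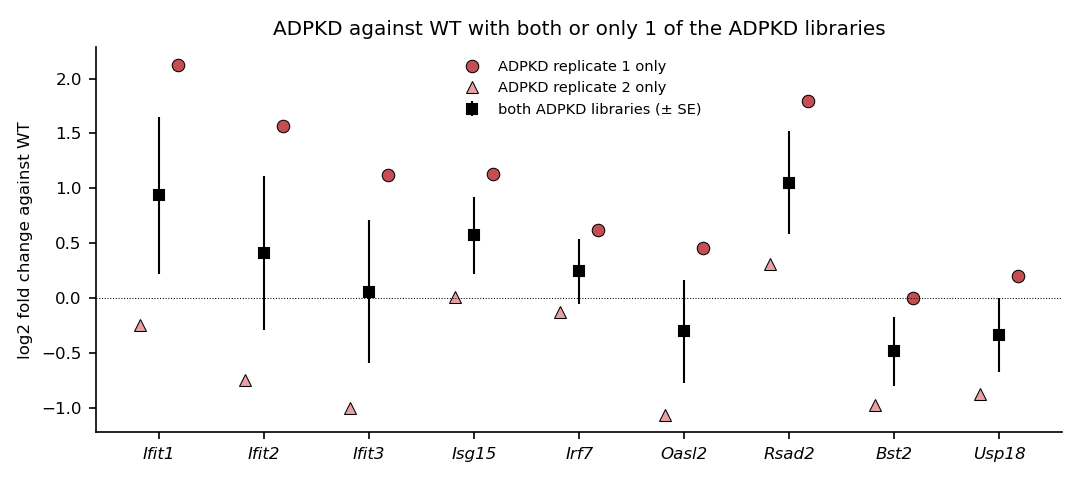
Log2 fold change on the log2(FPKM + 1) scale in ADPKD against WT (vertical axis) for each member. Squares with standard errors use both ADPKD libraries, circles only replicate 1 and triangles only replicate 2. For *Ifit3* the circle stands at 1.12 and the triangle at -1.0.

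The comparison of ADPKD+MMPP with ADPKD asks what the nanoparticle does in the knockout. The members split after treatment: *Rsad2*, *Irf7* and *Oasl2* fell, *Bst2* and *Usp18* rose, and the 4 others were not called. That made 5 of 9 called, where 70.9% of all tested genes were called, 27.9% higher and 43.0% lower, so the share called is no greater than the background. On the log2 scale the members had a median change of 0.04 and all tested genes one of -0.36. With the centring by gene structure described further on, the order turned, at -0.58 for the members and 0.15 for the 12375 tested protein-coding genes. The split of all calls depended on scaling, with 39.3% of called genes higher as deposited, 31.9% with a common sum and 54.0% with quantile normalization, which moved the median of all genes to 0.10. None of the 5 called members changed direction under any scaling.

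*Rsad2* had the largest change of the members, from a mean of 82.5 ± 56.1 FPKM in ADPKD to 2.04 ± 0.171 in ADPKD+MMPP (SD, n = 2), a 40.5-fold lower mean. The log2 fold change was -4.60 (standard error 0.47, adjusted p = 0.00034, limma). *Irf7* fell by 1.67 on the log2 scale (standard error 0.30, adjusted p = 0.00312, limma), with a 3.79-fold lower mean. *Oasl2* fell by 1.29 (standard error 0.47, adjusted p = 0.0455, limma), with a 3.75-fold lower mean. The libraries were separate for all 3 of these genes, as they were for 51.7% of tested genes lower after MMPP. *Bst2* rose by 1.55 (standard error 0.31, adjusted p = 0.00511, limma), a 2.80-fold higher mean, and *Usp18* rose by 1.01 (standard error 0.34, adjusted p = 0.0342, limma), a 2.17-fold higher mean. Their libraries were separate too, as were those of *Ifit3* and of 36.1% of tested genes higher after MMPP, but the calls of *Oasl2* and *Usp18* were lost in 9 and 8 of 16 alternatives, among them the fits without any one WT or ADPKD+MMPP library.

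The remaining members had log2 fold changes of 1.14 for *Ifit3* (standard error 0.65, adjusted p = 0.157), 0.29 for *Ifit2* (0.70, adjusted p = 0.719), 0.04 for *Ifit1* (0.72, adjusted p = 0.963) and -0.02 for *Isg15* (0.35, adjusted p = 0.962) in limma. The treated libraries of *Ifit1*, *Ifit2* and *Isg15* lay between the 2 ADPKD libraries. For *Ifit1* the 95% interval ran from -1.74 to 1.81. Without ADPKD replicate 2 *Ifit1* had -1.15 and *Ifit2* -0.87, both called lower, and without replicate 1 they had 1.23 and 1.45, both called higher.

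ADPKD+MMPP was also compared with WT, whose libraries lay close together. The ADPKD libraries enter both comparisons of the knockout, so the changes are not independent of each other. Against WT, 6 members had both treated libraries above both WT libraries and 3 had both below, where 38.9% and 53.0% of tested genes did. *Bst2* was called higher, at 1.07 (standard error 0.31, adjusted p = 0.0213, limma). *Rsad2* (-3.55, adjusted p = 0.000862), *Oasl2* (-1.60, adjusted p = 0.0211) and *Irf7* (-1.42, adjusted p = 0.00567) were called lower by limma. That made 4 of 9, against 73.9% of all tested genes, 30.1% higher and 43.8% lower. *Ifit3* (1.19), *Ifit1* (0.98), *Ifit2* (0.70), *Usp18* (0.68) and *Isg15* (0.55) were not called, with adjusted p from 0.111 to 0.388. With only the WT and ADPKD+MMPP libraries in the fit, so that the spread of the ADPKD libraries did not enter, 8 members were called, 5 of them higher, where 74.7% of all tested genes were called, 30.5% higher and 44.2% lower.

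The direction of the members after MMPP sorted with the structure of their genes. In GENCODE vM21, *Ifit1*, *Ifit3* and *Isg15* have 1 transcript each, so that 100% of their exon bases lie in exactly 1 transcript. The share was 85.0% for *Ifit2* with 2 transcripts, 73.1% for *Usp18* with 4 and 66.7% for *Bst2* with 2. It was 51.9% for *Oasl2* with 9, 34.2% for *Irf7* with 13 and 13.4% for *Rsad2* with 3. The 3 members with the lowest share were the 3 that fell, and the 6 others ranged from -0.02 to 1.55. The same held across the transcriptome, where Spearman's rho between this share and the log2 fold change over 12375 tested protein-coding genes was 0.65 in ADPKD+MMPP against ADPKD, 0.60 in ADPKD+MMPP against WT and 0.05 in ADPKD against WT. These are descriptions over genes that share the same libraries. For the 1309 tested protein-coding genes with 1 transcript, the median in ADPKD+MMPP against ADPKD was 1.10 on the log2 scale. The relation belongs to the libraries that also differ in their odd read numbers, and its source and the treatment cannot be told apart.

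Each library was therefore also centred within 20 bins of this share over protein-coding genes, which sets a member against genes of like structure. *Rsad2* remained called, at -2.67 against ADPKD (standard error 0.44, adjusted p = 0.00198, limma) and -1.64 against WT (adjusted p = 0.0138). *Bst2* remained called as well, at 1.42 against ADPKD (standard error 0.26, adjusted p = 0.00333, limma) and 0.92 against WT (adjusted p = 0.0179). *Irf7* moved to -0.50 and *Oasl2* to -0.58 against ADPKD, and *Usp18* to 0.56, none of them called. *Isg15*, level as deposited, was called lower against ADPKD, at -1.18 (standard error 0.33, adjusted p = 0.0182, limma), where genes with 1 transcript had a median of 1.10 as deposited. *Ifit1* (-1.12), *Ifit2* (-0.81) and *Ifit3* (-0.02) were not called. This left 3 of 9 members called, against 58.3% of the genes. Against WT the signs of *Ifit1* (-0.32), *Ifit2* (-0.43), *Ifit3* (-0.11) and *Isg15* (-0.75) turned, none of them called, and 2 of 9 members were called, against 62.6% of the genes.

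**Figure D4:**
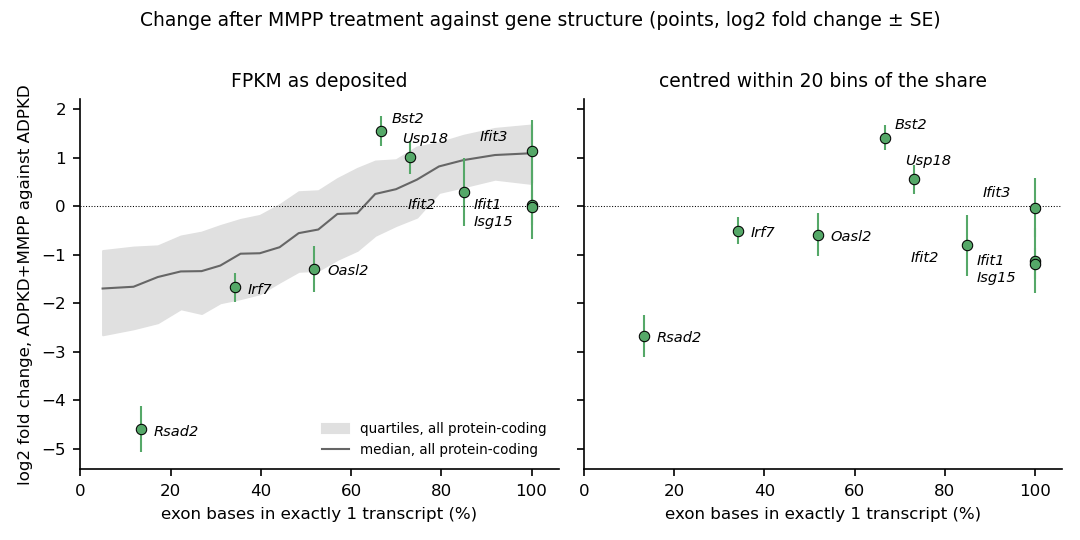
Log2 fold change in ADPKD+MMPP against ADPKD (vertical axis, points with standard errors) against the percentage of exon bases annotated in just 1 transcript (horizontal axis), for FPKM as deposited (left) and after centring within 20 bins of that percentage (right). The grey line and band are the median and quartiles of protein-coding genes in the bins. *Rsad2* lies far below the band at -4.60 and stays lowest at -2.67 after centring, and *Bst2* stays highest at 1.42.

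The signalling chain above the members was read in the same fit. *Ifnb1*, which encodes interferon beta, was the only one of 21 interferon genes to pass the filter. It had 4.19 and 1.89 FPKM in WT, 39.1 and 10.7 in ADPKD and 1.81 and 0.733 in ADPKD+MMPP. *Ifnb1* was higher in both ADPKD libraries than in any other library, and like the members it was higher in replicate 1. It rose in ADPKD against WT by 2.48 on the log2 scale (adjusted p = 0.037, limma) and fell after MMPP by 3.29 (adjusted p = 0.00408, limma). With 1 transcript, *Ifnb1* fell where genes of that structure had a median of 1.10. *Ifng*, the gene of interferon-gamma, had 0 to 0.177 FPKM in the WT and ADPKD libraries and 0.719 and 1.98 in ADPKD+MMPP, and did not pass the filter. The *Ifng* values rest on 0 to 28 reads per library, and those of *Ifnb1* in ADPKD+MMPP on 16 and 6 reads.

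The receptor genes *Ifnar1* and *Ifnar2* were present in every library. *Ifnar1* had 18.4 and 16.3 FPKM in WT, 25.1 and 25.4 in ADPKD and 12.2 and 12.7 in ADPKD+MMPP, and *Ifnar2* had 17.6 in each WT library, 17.2 and 18.4 in ADPKD and 4.71 and 4.32 in ADPKD+MMPP. After MMPP both fell against ADPKD, by 0.96 and 1.77 on the log2 scale. Of the kinases, *Jak1* (57.6 and 53.3, 60.6 and 62.4, 74.8 and 75.8 FPKM in the same order) was not called in any comparison. *Tyk2* fell by 2.01 after MMPP (adjusted p = 5.83e-05, limma). *Stat2* had 28.0 and 28.4 FPKM in WT, 22.7 and 15.8 in ADPKD and 0.972 and 1.27 in ADPKD+MMPP, and *Irf9* had 25.3 and 27.4, 20.2 and 10.9, and 4.97 and 4.51. *Stat2* and *Irf9* were thus lowest in the treated libraries. *Irf3*, which switches on *Ifnb1* after sensing of nucleic acid, had 13.7 and 12.8 FPKM in WT, 9.64 and 9.54 in ADPKD and 2.95 and 3.91 in ADPKD+MMPP. The share of exon bases in 1 transcript was 80.1% for *Jak1*, and it was 25.8% for *Stat2*, 45.0% for *Irf9* and 45.2% for *Irf3*. It was 43.2% for *Ifnar1*, 20.8% for *Ifnar2* and 29.5% for *Tyk2*. Protein-coding genes in the bins of these last 3 had medians of -0.84, -1.34 and -1.22 in ADPKD+MMPP against ADPKD.

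**Figure D5:**
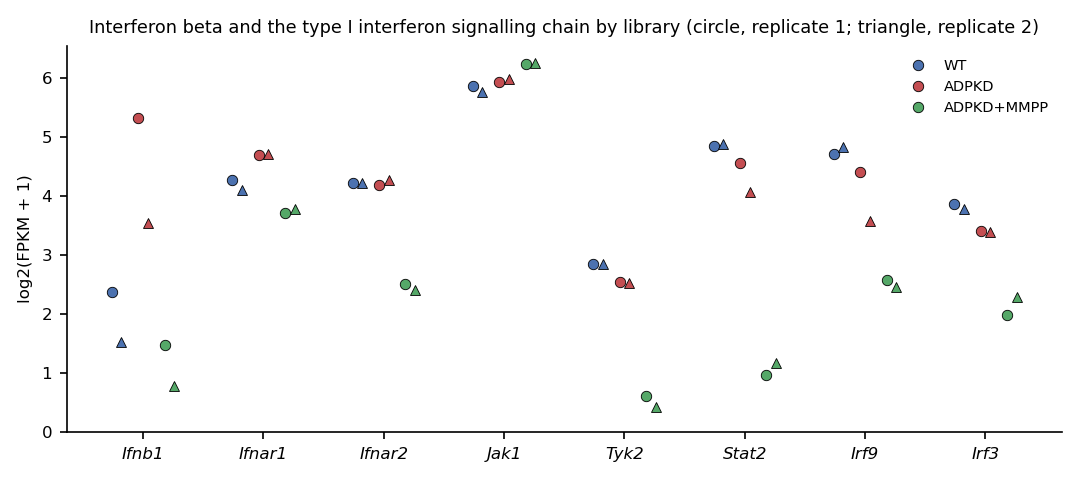
Level of interferon beta and of its receptor, kinase and factor genes as log2(FPKM + 1) (vertical axis) in each library, with WT in blue, ADPKD in red and ADPKD+MMPP in green, circles for replicate 1 and triangles for replicate 2. *Ifnb1* is highest in ADPKD (39.1 and 10.7 FPKM), and *Stat2* is lowest in the treated libraries (0.972 and 1.27 FPKM).

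Of the 21 tested receptor and signalling genes, 3 were called higher and 4 lower in ADPKD against WT, and 2 were higher and 17 lower after MMPP than in ADPKD, with medians of 0.13 and -1.21. Of all tested genes 14.2% and 12.5% were called higher and lower in ADPKD and 27.9% and 43.0% after MMPP, and the same shares stand beside the next lists. The median share of exon bases in 1 transcript was 29.5% in this list. *Socs3*, a feedback inhibitor of JAK signalling with the highest mean of the list, had 930 and 824 FPKM in WT, 327 and 218 in ADPKD and 574 and 589 in ADPKD+MMPP. It fell in ADPKD by 1.71 on the log2 scale and rose after MMPP by 1.12. Of its exon bases 92.1% lie in 1 transcript, and protein-coding genes in the bin of that share had a median of 1.06 after MMPP. *Ifngr2* and *Ifnlr1*, receptor chains for interferon-gamma and interferon lambda, rose in ADPKD by 1.48 and 1.24. *Jak2* fell after MMPP by 3.89, with 0.0795% of its exon bases in 1 transcript. Of 23 tested nucleic acid sensing genes 4 were called higher and 2 lower in ADPKD, with a median of 0.23, and 3 higher and 14 lower after MMPP, with a median of -1.26, the median share of exon bases in 1 transcript being 42.5% over the 22 matched to the annotation. *Irf5* (1.54) and *Tlr9* (1.37) rose and *Myd88* (-0.72) and *Trim56* (-0.64) fell in ADPKD. After MMPP *Trim56* (1.5) and *Rnaseh2b* (1.10) rose, and *Tbk1* (-2.82), the kinase that activates IRF3, and *Traf3* (-2.68) fell. Their shares of exon bases in 1 transcript were 90.7%, 89.3%, 23.0% and 3.95% in this order. Protein-coding genes in the bins of these shares had medians of 1.06, 1.06, -1.34 and -1.69 in ADPKD+MMPP against ADPKD.

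Among 59 tested genes of 67 other interferon-stimulated genes, 7 were called higher and 10 lower in ADPKD against WT (median 0.01), and after MMPP 14 were higher and 20 lower than in ADPKD (median -0.55). Of these genes 11.9% and 16.9% were called higher and lower in ADPKD, and 23.7% and 33.9% after MMPP, beside 14.2%, 12.5%, 27.9% and 43.0% of all tested genes. *Oasl1*, a paralog of *Oasl2* that represses the translation of *Irf7*, had 26.7 and 20.3 FPKM in WT, 88.8 and 66.9 in ADPKD and 0.779 and 0.703 in ADPKD+MMPP. It rose in ADPKD by 1.68 (adjusted p = 0.0049, limma) and fell after MMPP by 5.49 (adjusted p = 2.21e-05, limma), and 19.4% of its exon bases lie in 1 transcript. *Ifitm1* rose in ADPKD by 1.90 and fell after MMPP by 2.46, while *Slfn5* (-1.36) and *Gm4951* (-1.73) fell in ADPKD. *Samd9l* (1.69) and *Trim30a* (1.64), with 93.9% and 89.6% of exon bases in 1 transcript, rose after MMPP. The median share over the list was 49.4%. *B2m*, the light chain of class I histocompatibility molecules, had 1171 to 1390.5 FPKM in WT, 665 to 1157 in ADPKD and 2414 to 2508 in ADPKD+MMPP, and rose after MMPP by 1.49. It has 1 transcript, and genes of that structure had a median of 1.10.

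Of 23 tested genes induced by interferon-gamma 1 was called higher and 6 lower in ADPKD against WT (median -0.39), and 5 higher and 12 lower after MMPP (median -0.84), read against the same shares of all tested genes. *Irf1*, a transcription factor, had 151 and 134 FPKM in WT, 85.9 and 53.0 in ADPKD and 1.64 and 1.59 in ADPKD+MMPP. It fell in ADPKD by 1.06 and after MMPP by 4.71, and 40.3% of its exon bases lie in 1 transcript. *Cd274*, the gene of PD-L1, rose in ADPKD by 1.08 (adjusted p = 0.0396, limma) and fell after MMPP by 0.84. It has 1 transcript, and genes of that structure had a median of 1.10 after MMPP. The interferon-induced GTPase genes went apart after MMPP: *Tgtp1* (2.66) and *Tgtp2* (1.75), near-identical copies whose reads may be shared, rose, and *Ifi47* (-2.70) fell. The share of exon bases in 1 transcript was 82.4% for *Tgtp1*, 91.8% for *Tgtp2* and 31.5% for *Ifi47*. Its median over this list was 43.4%. *Cxcl10*, a chemokine, had 68.3 and 55.1 FPKM in WT, 140 and 53.8 in ADPKD and 39.2 and 33.2 in ADPKD+MMPP, and replicate 1 again stood out in ADPKD.

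Macrophage markers, since these cells also express the members, were read beside the results. Of 12 tested markers of macrophages and monocytes, 12 were called higher in ADPKD against WT, and their summed level was 107 to 125 FPKM in WT, 689 to 885 in ADPKD and 1393 to 1447 in ADPKD+MMPP. After MMPP the markers went apart, with 4 called higher and 6 lower against ADPKD and a median of -0.40. Of all tested genes 14.2% were called higher and 12.5% lower in ADPKD, and 27.9% and 43.0% after MMPP. The median share of exon bases in 1 transcript was 44.2% in this list. *Lyz2* made up 39.1% to 40.8% of the treated sums and rose by 1.46, while *Csf1r*, the receptor these cells need to survive, fell by 4.09, and 1 or 2 of the 13 listed markers, *Itgam* among them, were at 0. Markers of plasmacytoid dendritic cells summed to between 1.35 and 6.69 FPKM over all libraries, those of T and NK cells to 0.932 to 6.20, of B cells to 1.84 to 4.60 and of neutrophils to 1.81 to 12.96. Proximal tubule markers summed to 135 to 323 FPKM in WT, 80.3 to 589 in ADPKD and 12439 to 13142 in ADPKD+MMPP, where *Kap* alone made up 97.4% to 97.6%. Without *Kap* the sums were 33.9 to 89.5, 16.3 to 79.9 and 320 to 323 FPKM. Against ADPKD 5 of the 8 were called higher and none lower, where 27.9% and 43.0% of all tested genes were. Intercalated cell markers summed to 223 to 233, 22.6 to 50.7 and 178 to 188 FPKM, and endothelial markers to 561 to 691, 240 to 268 and 101 to 103. The median share of exon bases in 1 transcript was 90.7% for intercalated cell, 73.2% for endothelial and 35.2% for proximal tubule markers. Protein-coding genes in the bins of these shares had medians of 1.06, 0.55 and -0.98 in ADPKD+MMPP against ADPKD. Fibroblast and pericyte markers summed to 83.5 to 138 FPKM over all libraries, but single markers went apart. In ADPKD against WT 3 of the 5 tested were called higher and 1 lower, from -1.12 to 4.62 on the log2 scale. After MMPP 1 was called higher and 3 lower than in ADPKD, from -4.21 to 0.98. The part of these cells in the levels of the members was not tested.

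The members fell into patterns over the 6 libraries. By Pearson's r of log2(FPKM + 1), *Ifit1* was most like *Isg15* (0.99) and *Ifit2* (0.97), *Irf7* was like *Rsad2* (0.97) and *Oasl2* (0.91), and *Bst2* was like *Usp18* (0.97), while *Rsad2* and *Bst2* had -0.80. Outside the lists, the genes closest to the mean of the standardized members were *Tmem141* (0.997), *Chpt1* (0.988), *Dhrs1* (0.976), *Hsd17b12* (0.965) and *Ush1c* (0.956), of 7509 genes. That mean was 1.01 and -0.85 in ADPKD. In ADPKD+MMPP it was 0.13 and 0.01, as members like *Rsad2* (-1.25 and -1.20) and *Bst2* (1.11 and 1.14) offset each other. Likeness to it thus mainly follows the difference between the ADPKD libraries, not the changes of single members after MMPP. *Tmem141* had 7.72 and 7.37 FPKM in WT, 12.1 and 5.53 in ADPKD and 8.30 and 7.68 in ADPKD+MMPP, so its 2 ADPKD libraries were its highest and lowest, as those of *Ifit1* and *Ifit2* were. These correlations are descriptions over 6 libraries in 3 groups.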

How the data were processed

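RNA-seq covered 6 libraries, 2 each of WT, ADPKD and ADPKD+MMPP. Per the submitters' processing notes and the study's methods, the authors aligned reads to GRCm38 with HISAT2 2.1.0, counted them on genes with featureCounts 1.6.0, called genes with DESeq2, and deposited FPKM per gene symbol. The annotation release and the step from counts to FPKM are not given in the sources used here. FPKM are not counts, so limma 3.58.1 in R 4.3.3 was fitted to log2(FPKM + 1) across all 6 libraries at once. The filter kept 14862 genes, those that reached FPKM 1 in 2 or more libraries. Fold changes on this scale understate those of low genes. A call needs a fold of at least 1.5 and an unadjusted P under 0.05, the thresholds of the study. Adjusted p-values are Benjamini-Hochberg values over all tested genes. An exact permutation test of 2 against 2 libraries cannot go below 0.333 and was not used.

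GENCODE vM21 matched 53186 of 55367 symbols and gave positions, exon lengths and transcripts. Multiplied by exon length, at least 98.4% of low FPKM (up to 20 reads, within 0.05 read) fell on whole reads, which gave the depth. Counts recovered this way, taken as pairs of reads, differed between replicates beyond sampling noise in every group. The members, the 5 lists of interferon genes and the marker lists were chosen with earlier results of these data known, and the lists support nothing by themselves. Besides the members, the genes named from a list are the 3 with the highest mean FPKM and the 2 highest and 2 lowest called changes of ADPKD against WT and of ADPKD+MMPP against ADPKD, 10 genes named by their role, and the 5 genes most like the members among those with a mean FPKM of at least 5. Some of these are counted but not described, and 1 is not reported here. *Ifit3b* was named as a copy of *Ifit3*. Alternatives changed the pseudocount (to 0.1), the scaling, the filter, the variance trend, the groups in the fit, the adjusted p, a replicate block, the centring by exon share and leaving out each library, and an alternative chosen after seeing the data kept only genes with 1 transcript. Steps were tested on simulated data. Promoter sequences came from RefSeq.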

Additional observations from a re-analysis of the deposited data

How the results depend on the processing

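*Rsad2*, in both comparisons of ADPKD+MMPP, and *Bst2*, in ADPKD+MMPP against ADPKD, kept their direction and call under all 16 alternatives. The call of *Oasl2* against ADPKD was lost in 9 of them, that of *Usp18* in 8 and that of *Irf7* in 1, the centring by exon share. In ADPKD against WT, leaving out 1 library gave 0 to 5 members called, 5 without either ADPKD library. *Ifit2* then ranged from -0.75 to 1.57 and *Ifit3* from -1.0 to 1.12. In ADPKD+MMPP against ADPKD the members called were 5, and 3 with only the groups compared, 3 with the centring and 3 to 7 without 1 library, 3 without any one WT or treated library. *Ifit1* ranged from -1.15 to 1.23 and *Ifit2* from -0.87 to 1.45. In ADPKD+MMPP against WT they were 4, and 8 with only the groups compared, 2 with the centring and 2 to 8 without 1 library, 8 without either ADPKD library and 2 without any one other. The fits that called 8 do not hold both ADPKD libraries, and the cause of the other moves was not tested. Against WT the call of *Bst2* and that of *Oasl2* were each lost in 6 alternatives. Restricted to genes with 1 transcript, *Isg15* was called lower against ADPKD (-1.18, adjusted p = 0.0331, limma), and *Ifit1* and *Ifit3* were not called. These 1309 genes are nearly the 1312 of the centring bin with a share of 100%. The restricted fit therefore largely repeats the centring and is no separate support.

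Replicate numbers are shared between groups. Deviations from the group means correlated with r of 0.129 between WT and ADPKD, -0.00796 between WT and ADPKD+MMPP and 0.0137 between ADPKD and ADPKD+MMPP. With 2 libraries a group these values cannot show whether libraries of the same number share more than the number. The labels do not say. With a replicate block 1 member was called in ADPKD against WT, *Rsad2* (unadjusted P = 0.0444, limma). Scaling moved the split of calls: 39.3% of the genes called in ADPKD+MMPP against ADPKD were higher with FPKM as deposited, 31.9% with a common sum, 43.1% with trimmed means and 54.0% with quantile normalization. With the centring, which covers only the 12375 tested protein-coding genes, 58.0% were higher. The median change over all tested genes went on the log2 scale from -0.36 to -0.55, -0.26 and 0.10. Over the protein-coding genes with the centring it was 0.15. Against WT, 40.8% were higher as deposited and 32.0%, 43.6%, 52.9% and 57.3% in the same order. Values of the members rest on 98 reads or more per library, and the spread between 2 libraries a group limits what can be seen.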
